A study of Homo sapiens with 10 samples.

Results

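Chromatin at genes of the epithelial cell junction was compared between SKBR3 and BT474 cells. Both are established lines from human breast cancers with an amplified copy of ERBB2, the gene that encodes HER2. The set consisted of 10 of the 20090 protein-coding genes that were given a window. It was chosen by name with earlier results of these data known. It held the cadherins CDH1 (E-cadherin), CDH2 (N-cadherin) and CDH3 (P-cadherin), the catenins CTNNA1, CTNNB1, CTNND1 and JUP, the adhesion molecule EPCAM, and VIM and ZEB1, which mark or drive the mesenchymal state. For each gene the body plus 50 kb on either side in hg19 was taken as the window. The enhancer mark H3K4me1, histone H3 carrying a single methyl group on lysine 4, was measured by ChIP-seq in 2 replicates of each line. Their labels describe asynchronous cells with no treatment whereas the study's text describes EGF-treated cells. HER2 was mapped by ChIP-exo, which trims the bound DNA with an exonuclease, in asynchronous cells of each line given water as the vehicle or EGF (epidermal growth factor, 100 ng/ml, for 3 hours), with 1 list of peaks per condition. The HER2 antibody was the same product in both lines but came from different lots. The labels do not say whether replicates were separate cultures, so p-values measure only the spread between these libraries, which may be technical.

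Adherens junctions hold epithelial cells together. E-cadherin on neighbouring cells binds in pairs across the gap, and its cytoplasmic tail binds beta-catenin (CTNNB1) or plakoglobin (JUP) and p120-catenin (CTNND1), while alpha-catenin (CTNNA1) ties the complex to actin. In the epithelial to mesenchymal transition E-cadherin is lost, N-cadherin and vimentin (VIM) are gained, and ZEB1, a repressor that binds E-boxes, can silence CDH1. Loss of E-cadherin is well known in breast cancer, above all in the lobular type. These are descriptions of the genes from textbooks and not results of these libraries, which measure chromatin and no RNA or protein.

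The reads inside H3K4me1 islands, the regions that the authors' caller found enriched, numbered 15636057 and 15314195 in the SKBR3 replicates and 18714089 and 15097245 in the BT474 replicates. The SKBR3 libraries had 72888 and 70251 islands and the BT474 libraries 96293 and 89478. The smallest island in a library held between 20 and 28 reads, which describes the called islands and is not a known threshold. A window listed at 0 has no region that was called and kept, and signal there that was not called cannot be seen. The replicates of a line differed by more than sampling noise, with a chi-square per degree of freedom of 15.6 in SKBR3 and 8.23 in BT474 over bins of 100 kb, and were kept as separate samples. Among markers of the lines, ERBB2 was covered by islands over 99.3% and 99.2% of its window in SKBR3 and 100.0% in both BT474 libraries. The progesterone receptor gene PGR, which is expressed in BT474, was covered over 5.5% and 5.4% in SKBR3 and 70.7% and 67.6% in BT474. Markers of the luminal epithelium (6 genes), the oestrogen receptor positive state (2), basal or myoepithelial cells (3), fibroblasts (3) and leukocytes (3) all had islands in both lines, and no defining marker was listed at 0 in any library. Window cover over the leukocyte genes ranged from 5.5% to 45.6% in SKBR3 and from 6.1% to 13.3% in BT474 as means of a line. PTPRC (log2 fold change 1.49, SKBR3 over BT474), CD3E (2.01) and the 3 basal genes KRT5 (1.44), KRT14 (1.98) and TP63 (0.38) were called higher in SKBR3. Their part in the results below was not tested.

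E-cadherin and P-cadherin lie next to each other on chromosome 16 and showed the clearest difference between the lines. The window of CDH1 (gene body chr16:68771195-68869440) held no island in either SKBR3 library, whereas it held 242.2 and 252.0 RPM in the BT474 replicates (mean 247 ± 6.89, SD, n = 2). RPM is the number of reads in islands, scaled to the total of island reads in the library. Islands covered 34.6% and 36.9% of the CDH1 window in BT474 and none of it in SKBR3. The window of CDH3 (chr16:68670092-68761371) was likewise listed at 0 in both SKBR3 libraries and held 214.1 and 222.4 RPM in BT474. Adjusted p-values by edgeR's quasi-likelihood test over all windows were 8.11e-05 for CDH1 and 8.36e-05 for CDH3. Both windows passed the filter on low counts through BT474 alone, so they had to differ, and no fold is given against a line at 0. The windows overlap and share islands, and CDH1 and CDH3 are therefore not independent observations.

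The islands of CDH1 in BT474 were concentrated inside the gene. The body alone held 196.2 and 203.3 RPM and was covered over 57.0% and 58.6%. The widest island of the window in replicate 1 spanned 26.4 kb of intron 2 (chr16:68772601-68799000) with 1875 reads, and in replicate 2 the same stretch was split and led by an island of 12.6 kb with 891 reads. Over the whole window 62.4 kb lay in islands of both BT474 replicates, in 13 intervals, of which the 3 widest (12.8, 12.6 and 12.2 kb) all lay in CDH1. The body of CDH3 was less covered, over 21.4% in each BT474 library. At the start of CDH1 the nearest island was 1.41 kb away in BT474 replicate 1 and 0.20 kb away in replicate 2, against 214.61 and 206.19 kb in the SKBR3 replicates. The start of the CDH3 gene model lay inside an island in both BT474 libraries.

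N-cadherin was low in both lines and lower in SKBR3. The CDH2 window (gene body chr18:25512843-25757910) held 5.9 and 6.0 RPM in SKBR3 and 44.9 and 37.1 in BT474, and the lines did not overlap. The log2 fold change, SKBR3 over BT474, was -2.64 ± 0.21 (SE; adjusted p = 0.000583, edgeR). The SKBR3 reads came from a single island of 3.0 kb with 92 reads in each replicate, which lay in intergenic sequence beyond the 3′ end of the gene, and the CDH2 body itself was listed at 0 in both SKBR3 libraries. In BT474 the body held 28.9 and 23.8 RPM over 5.1% and 3.6% of its length. All 3 cadherin bodies were thus without an island in SKBR3.

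**Figure D1:**
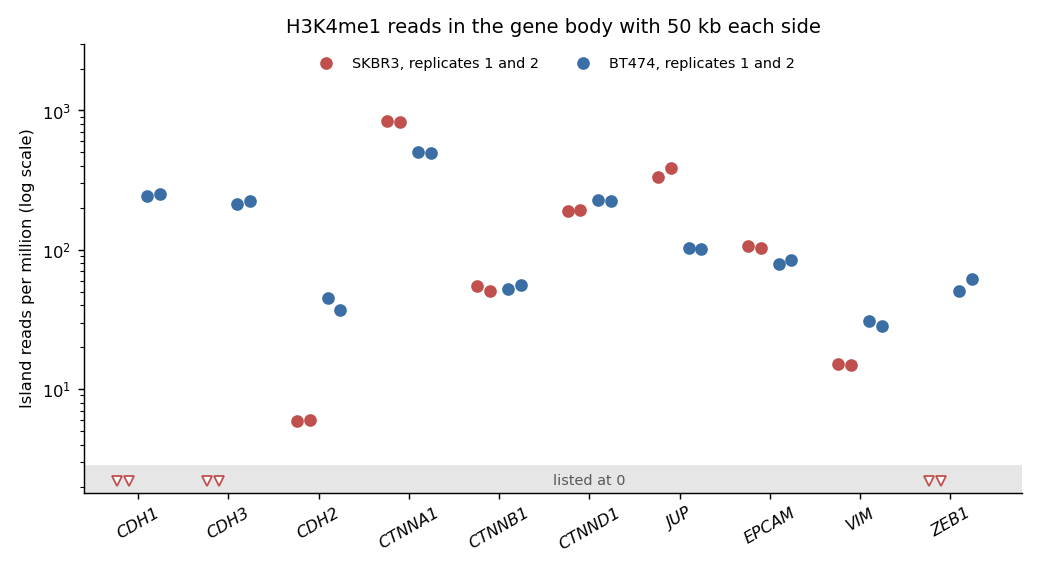
Island RPM in the window of each gene (log scale), with 1 point per library and SKBR3 in red and BT474 in blue. CDH1, CDH3 and ZEB1 are listed at 0 in both SKBR3 libraries (open triangles in the grey strip), CTNNA1 and JUP are higher in SKBR3, and the points of CTNNB1 overlap between the lines.

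The catenins did not follow the cadherins. Alpha-catenin was higher in SKBR3, where the CTNNA1 window (gene body chr5:137946656-138270723) held 834.7 and 828.8 RPM against 499.8 and 497.5 in BT474. The log2 fold change was 0.88 ± 0.043 (SE; adjusted p = 0.000191, edgeR), a fold of 1.84, and the lines did not overlap. Cover was 59.3% in both SKBR3 libraries and 42.2% and 40.3% in BT474. The widest intervals covered in SKBR3 alone lay in the upstream part of the gene model. Of the 79.0 kb in islands of both SKBR3 replicates and neither BT474 replicate, the 3 widest intervals had their midpoints 58.0, 85.7 and 35.4 kb from the start of the gene model, upstream of the start of the canonical transcript, which lies 142.5 kb into it. In contrast, the leading island was in intron 7 in all 4 libraries, with widths of 21.8 and 22.4 kb in SKBR3 and 21.4 and 17.4 kb in BT474. The window also takes in HSPA9, where an interval of 8.4 kb was covered in both BT474 replicates and in neither SKBR3 replicate.

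Beta-catenin and p120-catenin did not pass the test. The CTNNB1 window (gene body chr3:41236232-41301587) held 55.4 and 50.4 RPM in SKBR3 and 52.5 and 55.9 in BT474, and these values overlapped. The log2 fold change was 0.11 ± 0.11 (SE; adjusted p = 0.407, edgeR). Its leading island lay in intron 1 in every library, between 6.6 and 12.2 kb wide. For CTNND1 (gene body chr11:57520715-57587018) the window held 190.6 and 193.7 RPM in SKBR3 and 227.4 and 225.4 in BT474, with a log2 fold change of -0.09 ± 0.054 (SE; adjusted p = 0.181, edgeR). The values of CTNND1 did not overlap, but its call depended on the scaling and on the width of the window, since without the TMM factors the log2 fold change was -0.24 (adjusted p = 0.0139) and in the gene body alone -0.22 (adjusted p = 0.0256). The leading island of CTNND1 was also shared by the lines, with its midpoint in intron 1, and spanned 32.2 and 25.2 kb in SKBR3 and 41.0 and 26.4 kb in BT474. Of its window 45.6 kb was covered in all 4 libraries, against 11.4 kb for CTNNB1 and 124.2 kb for CTNNA1.

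Plakoglobin, which can take the place of beta-catenin in the junction and is also part of the desmosome, showed the largest difference among the catenins. The JUP window (gene body chr17:39910856-39943183) held 332.7 and 387.5 RPM in SKBR3 and 103.5 and 101.1 in BT474. The log2 fold change was 1.96 ± 0.077 (SE; adjusted p = 0.000123, edgeR), a fold of 3.88, and both SKBR3 libraries stood well above both BT474 libraries. Islands covered 49.1% and 61.3% of the window in SKBR3 and 25.5% and 23.4% in BT474. The 28.4 kb that both BT474 replicates covered was covered in both SKBR3 replicates too. Signal inside islands was also denser, at 80.0 and 73.1 reads per kb of island in SKBR3 against 57.3 and 49.3 in BT474, although the libraries as a whole went the other way (49.3 and 47.8 against 60.6 and 51.0). JUP lies on the long arm of chromosome 17, as ERBB2 does. The ERBB2 window differed in the other direction, with 1852.6 and 1826.8 RPM in SKBR3 and 2745.7 and 2818.3 in BT474. The islands within 1 Mb on either side of the JUP window held 4321.8 RPM in SKBR3 and 1077.9 in BT474. No input library was analysed here, so more copies of the DNA and more of the mark per copy cannot be told apart.

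**Figure D2:**
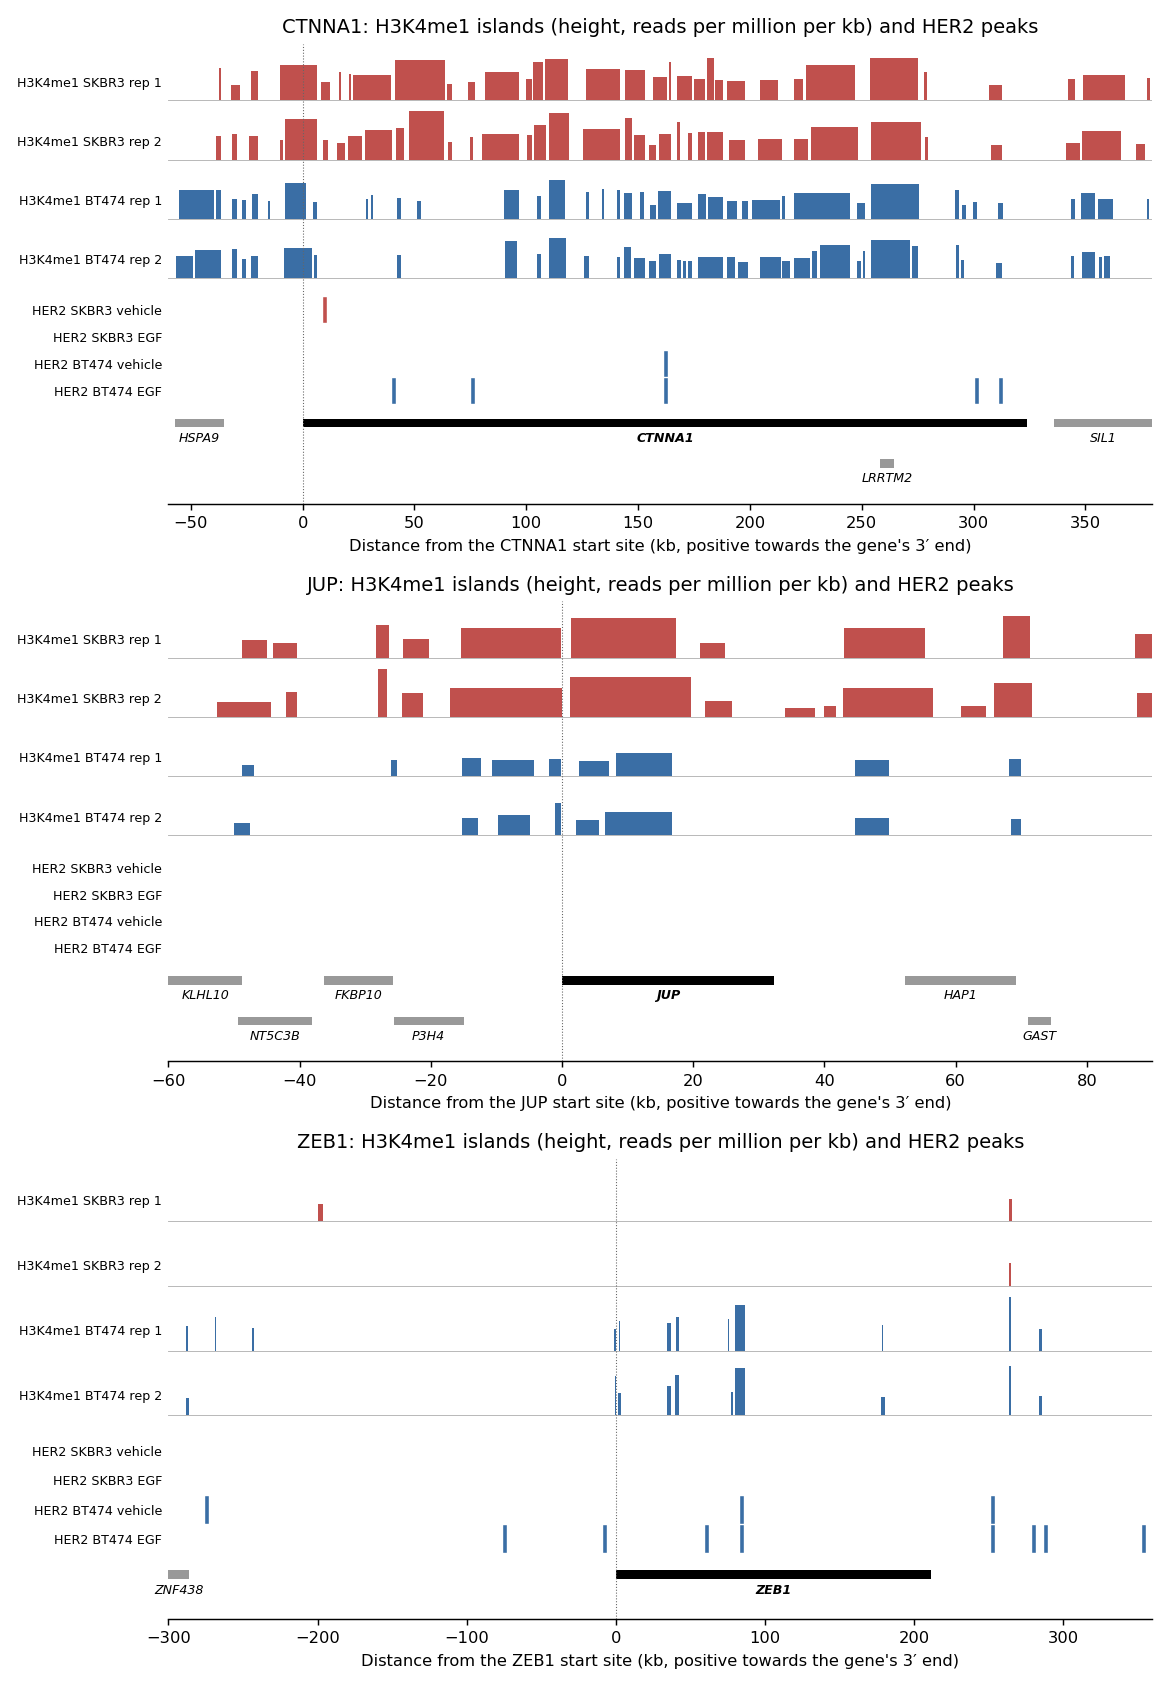
H3K4me1 islands in each library (bar height, RPM per kb of island, scaled within each panel to a highest value of 5.3 for CTNNA1, 8.2 for JUP and 4.9 for ZEB1), HER2 peaks (ticks) and genes, against distance from the start site in kb. SKBR3 (red) has additional islands in the upstream part of CTNNA1 and wider, higher islands at JUP, and no island in SKBR3 falls on ZEB1.

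EPCAM, an epithelial adhesion molecule that lies outside the cadherin complex, gave opposite answers in its window and in its body. The window (gene body chr2:47572297-47614740) held 106.0 and 103.2 RPM in SKBR3 and 79.7 and 84.4 in BT474, a log2 fold change of 0.49 ± 0.079 (SE; adjusted p = 0.00467, edgeR). This call was lost without BT474 replicate 1 (log2 fold change 0.44, adjusted p = 0.0504). The EPCAM body alone held 11.8 and 16.5 RPM in SKBR3 and 25.1 and 26.0 in BT474, and the log2 fold change there was -0.70 (adjusted p = 0.047, edgeR over gene bodies). The libraries separated by line on both measures, in opposite directions. The leading island spanned the start of the gene model in all 4 libraries, with most of its length upstream. At the start of the canonical transcript, 24.2 kb further on, the nearest island was 13.45 and 11.25 kb away in SKBR3 and 1.55 and 0.25 kb away in BT474. An interval of 4.4 kb inside EPCAM was covered in both BT474 replicates and in neither SKBR3 replicate.

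VIM and ZEB1, the mesenchymal genes of the set, had islands over a small part of their windows in BT474 and less in SKBR3. The VIM window was covered over 6.0% and 6.9% in SKBR3 and 10.8% and 10.6% in BT474. The short VIM body was covered over 10.7% and 12.8% in SKBR3 and 44.5% and 23.1% in BT474. Vimentin, an intermediate filament, had a mean of 15.1 ± 0.144 RPM (SD, n = 2) in its window in SKBR3 and 30.7 and 28.3 in the BT474 replicates (gene body chr10:17270240-17279592). The log2 fold change was -0.83 ± 0.18 (SE; adjusted p = 0.0145, edgeR), and although the values did not overlap the call was lost without BT474 replicate 1 (adjusted p = 0.131), without BT474 replicate 2 (adjusted p = 0.0986) and in the gene body alone (-0.96, adjusted p = 0.0791). The VIM start lay inside an island in both BT474 libraries and 2.56 and 2.76 kb from the nearest island in SKBR3. The leading SKBR3 island of this window was in intron 1 of the neighbour TRDMT1, at -46.2 kb from the VIM start in both replicates.

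ZEB1 was listed at 0 over its whole window in both SKBR3 libraries and held 50.6 and 61.8 RPM in BT474 (gene body chr10:31607424-31818742; adjusted p = 0.000331, edgeR). As with CDH1, the window passed the filter through BT474 alone. Islands covered 4.9% and 6.2% of the ZEB1 window in BT474, in 7 islands per library. The leading island lay in intron 1, 83.4 kb from the start, and was 6.4 kb wide with 500 reads in replicate 1 and 6.6 kb wide with 437 reads in replicate 2. An island lay 0.02 kb from the ZEB1 start in both BT474 libraries, whereas the nearest SKBR3 islands were 196.42 and 263.58 kb away.

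ZEB1 is known to bind the E-box CAGGTG, which reads CACCTG on the other strand. Either orientation occurred within 250 bases upstream of the start in 17.5% of 35116 promoters of the RefSeq table (GRCh38.p14). Entries matched 6 of the 10 genes (CDH2, CTNNA1, CTNNB1, JUP, VIM and ZEB1), with 17 promoters among them, and 3 of the 17 held an E-box (2 of ZEB1 and 1 of JUP). The most upstream of the 7 ZEB1 promoters in the table is shown because it contains the letters that ZEB1 itself is known to bind (chr10:31318167-31318416 in GRCh38.p14, plus strand, E-box in capitals, 57 bases before the start).
ZEB1 promoter: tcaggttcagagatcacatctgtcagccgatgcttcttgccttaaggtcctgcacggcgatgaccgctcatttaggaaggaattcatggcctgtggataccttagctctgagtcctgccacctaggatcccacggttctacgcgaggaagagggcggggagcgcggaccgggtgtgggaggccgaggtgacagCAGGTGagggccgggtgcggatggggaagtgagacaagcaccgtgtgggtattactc
The match describes letters in this window and is not a measured binding site, and the position cannot be set against the hg19 islands by coordinate.

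**Figure D3:**
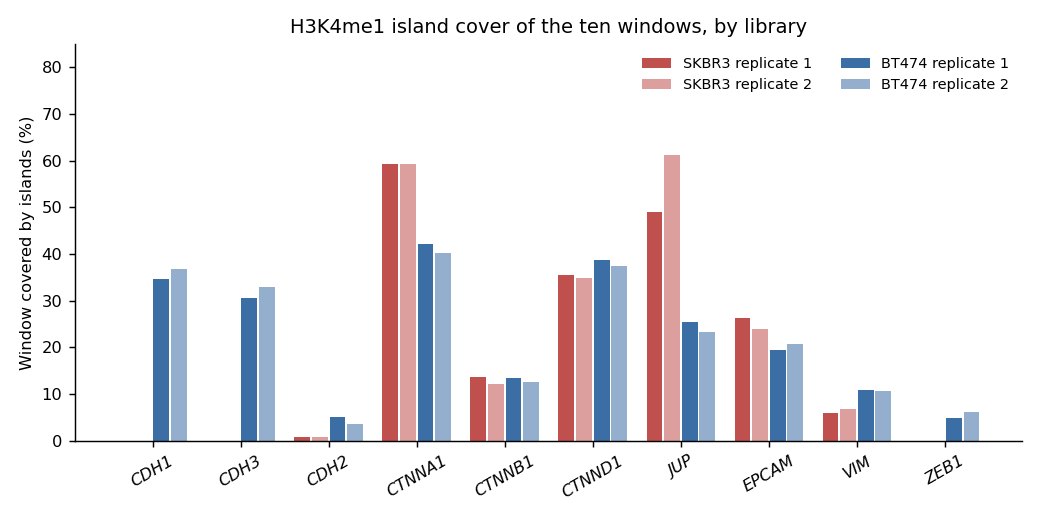
Share of each window covered by H3K4me1 islands (%), with 1 bar per library. SKBR3 lies above BT474 in every library for CTNNA1, JUP and EPCAM and below it for CDH1, CDH3, CDH2, CTNND1, VIM and ZEB1.

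Counted over the set, 3 genes were called higher in SKBR3 (CTNNA1, JUP and EPCAM) and 5 higher in BT474 (CDH1, CDH2, CDH3, VIM and ZEB1). All 10 windows passed the filter on low counts, 3 of them through BT474 alone. These calls have to be read against the genome, since 72.4% of the 18837 windows tested were called, 34.2% higher in SKBR3 and 38.2% higher in BT474. Calling 8 of 10 is thus close to the background and is not a result about junction genes. The median log2 fold change was 0.11 over the 7 genes not listed at 0 and -0.113 over all windows, and omitting the TMM factors moved the median of all windows by 0.143 to -0.257. Cover gave a similar division. It was higher in every SKBR3 library than in every BT474 library for 3 genes, beside 36.7% of all windows, and the reverse for 6 genes, beside 41.9% of all windows.

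The surrounding chromosome also differed between the lines. In RPM, the islands within 1 Mb on either side of the window had a log2 ratio, SKBR3 over BT474, of 0.89 around EPCAM, 0.61 around CTNNB1 and 0.34 around CTNNA1, and the highest of the set around JUP (4321.8 against 1077.9 RPM). The ratio was -0.17 around CTNND1, -1.26 around VIM and -1.68 around CDH2. Around the genes listed at 0 in SKBR3 it was also negative, at -2.12 for CDH1, -2.13 for CDH3 and -1.92 for ZEB1, where the regions on either side held 295.5, 311.7 and 219.1 RPM in SKBR3 and 1287.1, 1360.6 and 828.5 in BT474. This ratio was subtracted from the log2 ratio of the window's mean RPM, which carries no TMM factor and so differs from the fitted fold changes above. CTNNA1 then remained positive at 0.40, and CDH2 and CTNND1 negative at -1.11 and -0.07. JUP came to -0.19, EPCAM to -0.54, CTNNB1 to -0.65 and VIM to 0.29, each the opposite sign of its fitted fold change. Copy number and the mark cannot be told apart here either.

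**Figure D4:**
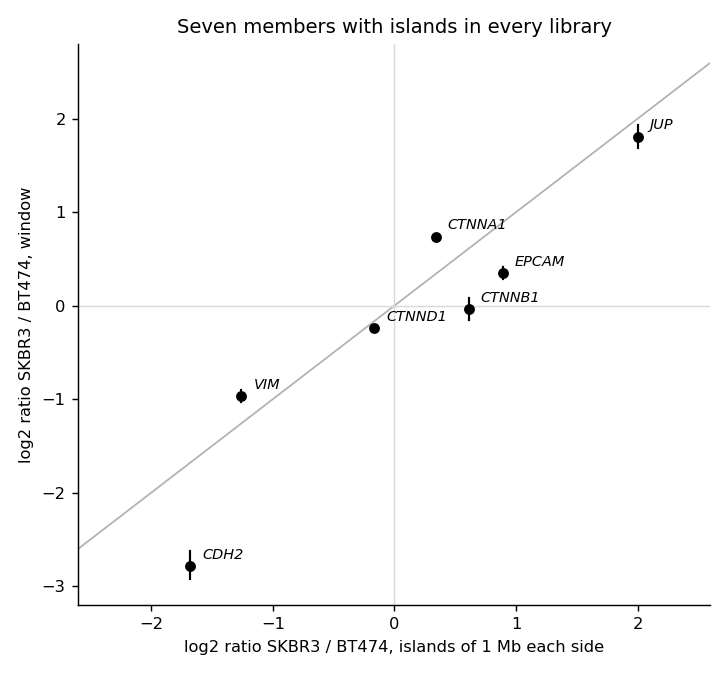
For the 7 genes with islands in every library, the log2 ratio of RPM, SKBR3 over BT474, in the window (vertical axis, point for the means and line for the range over the 4 pairs of libraries) against the same ratio in 1 Mb on either side (horizontal axis). The diagonal marks equal ratios, and JUP lies close to it, with CTNNA1 and VIM above it and CDH2, CTNNB1 and EPCAM below it.

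Segments with neither an island nor a HER2 peak in a line were then measured. A segment was called when it was at least 50 kb long and held at least 5 kb that both replicates of the other line covered. In SKBR3 4 genes had such a segment, namely CDH1, CDH3, ZEB1 and CDH2, beside 12.1% of all windows. For CDH1, CDH3 and ZEB1 it took in the whole window, which held for 2.12% of all windows. The set was chosen with earlier results of these data known, and CDH1 in SKBR3 was named beforehand as an example of such a segment. The distance from these shares is therefore not a finding about the set. CDH1 and CDH3 have overlapping windows in the same empty stretch, so these counts of genes are not counts of separate loci. In BT474 no gene of the set had a called segment, beside 4.9% of all windows, and no whole window was empty, beside 0.269% of all windows. The longest stretch of BT474 without island or peak was 91.4 kb, in ZEB1, and SKBR3 had nothing there either (0.0 kb in both replicates).

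Followed beyond the windows, the empty stretch around CDH1 and CDH3 in SKBR3 ran over 420.8 kb (chr16:68565001-68985800). It contained both cadherin genes whole, part of ZFP90, and the start and part of TANGO6. In BT474 the same stretch held 22 and 20 islands, 296.3 and 306.6 RPM, and 76.0 kb covered in both replicates. By this cover it ranked 37th among the 10022 segments of at least 50 kb that were empty in SKBR3, of which 2739 held at least 5 kb. On its left, the last SKBR3 island lay at the edge in replicate 2, in ZFP90, and 33.4 kb away in replicate 1. In the adjoining 100 kb SKBR3 islands covered 21.8% and 20.4%, close to the 28.4% and 28.2% of BT474. The right edge was less clear, since the next 100 kb was sparse in all libraries (4.4% and 0.0% in SKBR3, 6.0% and 5.0% in BT474) and the next island of SKBR3 replicate 2 was 119.0 kb away. The deposited lists contain what remained after the authors had removed regions of high input signal, and whether that step touched the stretch was not tested.

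**Figure D5:**
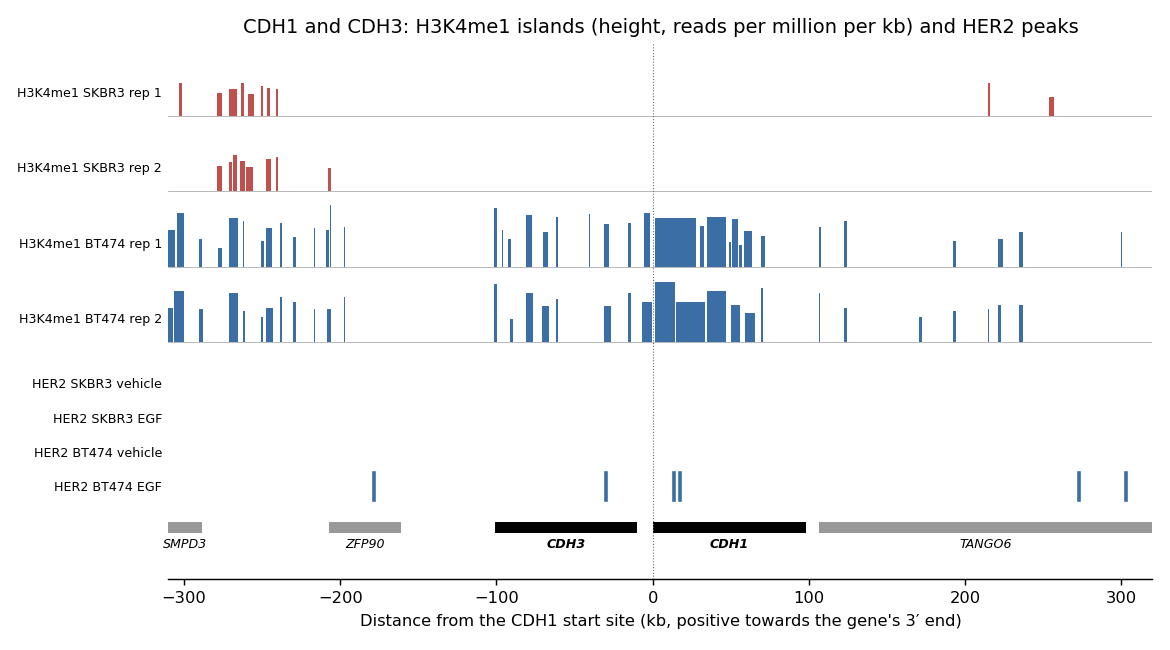
H3K4me1 islands in each library (bar height, RPM per kb of island, highest 4.8), HER2 peaks (ticks) and genes, by distance from the CDH1 start site in kb. Both SKBR3 libraries (red) have islands to the left of the stretch and none over CDH3 and CDH1, where BT474 (blue) has its widest islands and 3 of its HER2 peaks after EGF.

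The empty stretches of ZEB1 and CDH2 held less BT474 cover. That of ZEB1 ran over 460.0 kb (chr10:31411001-31871000) but held only 14.2 kb of BT474 cover (rank 841), and the 100 kb on either side was sparse in both lines, between 0.0% and 3.6% in SKBR3 and between 1.8% and 3.8% in BT474. That of CDH2 ran over 995.1 kb (chr18:25504001-26499073), ended at a HER2 peak of SKBR3 rather than at an island, and held 22.8 kb of BT474 cover (rank 393). No SKBR3 island followed it for another 2037.9 and 2066.7 kb. The stretch at CDH1 and CDH3 thus differed from these in its BT474 cover and in the SKBR3 cover to its left, which is a description with no test. To its right SKBR3 cover was sparse as well (4.4% and 0.0% of 100 kb).

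At the starts of the gene models, an island within 1 kb was present in both replicates for 4 genes in SKBR3, beside 34.2% of all genes, and for 7 genes in BT474, beside 48.2% of all genes. CTNNA1, CTNND1, JUP and EPCAM had such an island in both lines, and CDH3, VIM and ZEB1 in BT474. CDH1 had an island this close in BT474 replicate 2 alone. Neither line had an island within 1 kb of the start of the CDH2 or CTNNB1 gene model. For CDH2 the nearest was 1.31 kb away in both BT474 libraries, and for CTNNB1 between 6.17 and 6.57 kb in all 4 libraries. The choice of start mattered. At the start of the canonical transcript the count was 2 in SKBR3 (CTNNA1 and JUP), beside 35.4% of all genes, and 7 in BT474, beside 50.7% of all genes. There CDH2 lay 0.49 kb from an island in both BT474 libraries and counted, while EPCAM did not.

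HER2 peaks in the windows of these genes were counted in each list. The 10 windows together spanned 2.10 Mb and held 2 peaks of the SKBR3 vehicle list, 1 of the SKBR3 EGF list, 4 of the BT474 vehicle list and 16 of the BT474 EGF list. The lists as a whole had 2596, 2520, 8559 and 29326 peaks. At least 1 peak fell in the windows of 2 genes in SKBR3 with vehicle (12.2% of all windows), 1 in SKBR3 with EGF (13%), 3 in BT474 with vehicle (35.5%) and 6 in BT474 with EGF (72.7%). Over 10 genes these counts lie near the shares of all windows and are not a result about junction genes. With 1 list per condition no difference between treatments or lines was tested. CDH2, JUP, EPCAM and VIM had no HER2 peak in any list. For JUP the closest was 84.8 kb from the gene body, in SKBR3 with vehicle, and for EPCAM an upstream site was listed in 3 conditions, 120.2 kb away in SKBR3 with EGF and 120.1 kb away in BT474 with vehicle and with EGF.

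At E-cadherin and P-cadherin HER2 peaks were listed in BT474 after EGF and in no other list. They lay at chr16:68741030-68741339 in the 3′ part of the CDH3 gene model (score 84, rank 8640 of 29326) and at chr16:68785047-68785250 and chr16:68788295-68788507 in intron 2 of CDH1 (scores 30 and 26, ranks 24663 and 26192). All 3 overlapped islands of both BT474 replicates. The scores in intron 2 were among the lowest of the list. This list was also the longest, and all 3 ranks lie beyond the 8559 peaks of the next longest list, BT474 with vehicle. In SKBR3 the HER2 peak nearest to CDH1 was 2214.3 kb from the gene with vehicle and 2076.6 kb with EGF.

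In each BT474 list the highest score of the set belonged to a peak in intron 1 of CTNNA1. It spanned chr5:138108843-138109148 with EGF (score 212.5, rank 1865 of 29326) and chr5:138108891-138109157 with vehicle (score 99, rank 2384 of 8559), inside islands of both replicates. Since the scale of the score is not stated, these scores were not compared between lists. CTNNA1 had 4 further peaks in BT474 with EGF, with scores from 16.5 to 33.5, and 1 peak in SKBR3 with vehicle at chr5:137956716-137956919 (score 32.5), which no other list shared. In intron 1 of ZEB1 a peak was listed in BT474 with vehicle at chr10:31692191-31692431 (score 66.5) and with EGF at chr10:31692204-31692455 (score 103), inside the leading ZEB1 island of both replicates. CTNND1 had a peak in its own intron 12 in SKBR3 with vehicle (score 33.5) and an intergenic peak 17.9 kb from the gene in BT474 with EGF (score 64), neither of them in an island of its own line.

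In BT474 a site in intergenic sequence upstream of CTNNB1 was listed with vehicle (chr3:41213607-41213820, score 20.5) and with EGF (chr3:41213646-41213845, score 27.5). A further peak upstream of CTNNB1, at chr3:41216546-41216865, was listed with EGF alone (score 119.5). None of these lay in an island of BT474. In SKBR3 an interval of 5.0 kb covered in both replicates (chr3:41214201-41219200) contained the last of them. The peak of SKBR3 with EGF lay downstream of CTNNB1 in an intron of ULK4 (chr3:41318961-41319194, score 76.5). It was also listed in BT474 with EGF. Of its 30-base stretches, 55.6% in the SKBR3 peak and 56.8% in the BT474 peak occurred again elsewhere in GRCh37, so the site is largely repeated sequence.

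Sequences of the sites in CTNNA1 and ZEB1 are given because they lay in islands of both BT474 replicates and were listed with vehicle and with EGF. Of the 30-base stretches in these peaks, 5.5% in CTNNA1 and 0.0% in ZEB1 occurred again elsewhere in GRCh37. They were read from GRCh37, plus strand, with the core CGTNTGC that the study names, or its reverse complement GCANACG, in capitals where it occurs.
CTNNA1 intron 1, BT474 vehicle (chr5:138108891-138109157): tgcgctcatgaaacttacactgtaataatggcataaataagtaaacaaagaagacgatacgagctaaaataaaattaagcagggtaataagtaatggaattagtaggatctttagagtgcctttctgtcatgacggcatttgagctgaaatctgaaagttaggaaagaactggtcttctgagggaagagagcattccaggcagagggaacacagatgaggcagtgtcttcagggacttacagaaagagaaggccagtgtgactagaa
ZEB1 intron 1, BT474 vehicle (chr10:31692191-31692431): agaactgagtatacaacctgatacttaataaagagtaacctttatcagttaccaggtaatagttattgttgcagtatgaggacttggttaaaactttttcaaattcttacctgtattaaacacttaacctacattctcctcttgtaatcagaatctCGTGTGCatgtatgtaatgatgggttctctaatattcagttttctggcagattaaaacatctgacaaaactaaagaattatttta
The core occurred once in the ZEB1 site and not in the CTNNA1 site. Over the set it was present in 0 of 2 peaks in SKBR3 with vehicle, 0 of 1 in SKBR3 with EGF, 1 of 4 in BT474 with vehicle and 2 of 16 in BT474 with EGF, where the other peak with a core was the one at chr16:68788295-68788507 in CDH1. Over the whole lists the core was in 8.44%, 15.9%, 19.4% and 11.8% of peaks in the same order, searched over the full width of the peak on both strands.

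Other genes of the junction and of the transition were taken from 9 lists with 57 genes, all of which were tested. Of these, 24 were called higher in SKBR3, 22 higher in BT474 and 11 neither, so that 80.7% were called beside 72.4% of all windows, 34.2% higher in SKBR3 and 38.2% higher in BT474. Of the 22, 4 (CTNNA2, NECTIN3, SNAI2 and PRRX1) were listed at 0 in both SKBR3 libraries, passed the filter through BT474 alone and had to differ. Each list is small, so its counts are given beside these shares as a description with no test. The further cadherins divided, with CDH4 and CDH6 higher in SKBR3 and CDH5, CDH11 and CDH13 higher in BT474. CDH11, a mesenchymal cadherin, held 0.0 and 4.2 RPM in SKBR3 and 61.8 and 71.0 in BT474. With SKBR3 reads in replicate 2 alone, it also passed the filter through BT474, and its SE was large (1.2). Among 9 genes of the catenin and p120 family, 2 were higher in SKBR3, 3 higher in BT474 and 4 neither. PKP1, a plakophilin of the desmosome, held 456.4 and 477.1 RPM in SKBR3 and 159.1 and 146.1 in BT474 (log2 fold change 1.76 ± 0.059, SE; adjusted p = 9.37e-05, edgeR). CTNNA2, the neural alpha-catenin, was listed at 0 in both SKBR3 libraries and held 80.5 and 78.2 in BT474.

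Nectins and afadin, which form the other adhesion system of the adherens junction, had 3 of 5 genes higher in SKBR3 and 1 higher in BT474. AFDN (afadin) held 302.3 and 293.1 RPM in SKBR3 and 104.6 and 110.0 in BT474, while NECTIN3 was listed at 0 in both SKBR3 libraries and held 145.7 and 156.5 in BT474. Of 6 linkers to the cytoskeleton 3 were higher in each line, with vinculin (VCL) at 355.8 and 367.6 in SKBR3 and 125.9 and 129.4 in BT474, and AJUBA at 70.9 and 77.2 against 169.3 and 163.9. The desmosome list, which leaves out JUP and PKP1 because they were counted above, had no gene of 5 higher in SKBR3 and 2 higher in BT474, DSC2 and the desmocollin DSC3 (14.9 and 10.7 against 40.0 and 35.5). Tight junction genes were higher in SKBR3 for 4 of 6, among them the claudins CLDN1, CLDN3 and CLDN4, and higher in BT474 for CLDN7 and F11R. Of 4 further regulators of junction proteins, CBLL1, a ubiquitin ligase of E-cadherin, and CTNNBIP1, an inhibitor of beta-catenin, were higher in SKBR3, and ADAM10 and RAB11A were not called.

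Regulators of the epithelial state were higher in SKBR3 for 4 of 8 and in BT474 for 3 of 8. The splicing regulators ESRP1 and ESRP2 were both higher in BT474, and ESRP1 held 3.6 and 0.0 RPM in SKBR3 and 186.1 and 176.3 in BT474. With SKBR3 reads in replicate 1 alone, ESRP1 also passed the filter on low counts through BT474, and its SE was large (0.8). ELF3, an epithelial transcription factor, went the other way with 271.4 and 272.6 in SKBR3 and 131.0 and 135.5 in BT474. Of 9 mesenchymal regulators and markers 4 were higher in SKBR3 (ZEB2, SNAI1, FN1 and SPARC) and 5 in BT474 (SNAI2, TWIST1, TWIST2, FOXC2 and PRRX1). ZEB2, the paralogue of ZEB1, held 84.7 and 61.1 RPM in SKBR3 and 30.6 and 28.8 in BT474, a log2 fold change of 1.44 ± 0.20 (SE; adjusted p = 0.00318, edgeR), whereas ZEB1 had islands in BT474 alone. SPARC, a matrix protein, had the largest fold change of the list towards SKBR3, with 148.9 and 176.6 against 42.7 and 37.2. SNAI2 and PRRX1 were listed at 0 in both SKBR3 libraries, with at most 7.5 RPM in BT474.

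Windows were compared with that of CDH1 over the 4 libraries by the distance between their log2 RPM. Those within 1 Mb on either side of CDH1, such as that of CDH3, were left out. The most alike of the others were RNFT1, CDH12, PIEZO2, NRG3 and CNTN5, at distances of 0.05, 0.10, 0.11, 0.11 and 0.37. The distance used the total RPM of a window and not its length, so a longer window can match with sparser islands. CDH12 (chr5:21750782-22853453), PIEZO2, NRG3 and CNTN5 are all longer genes than CDH1. All the matched windows were listed at 0 in both SKBR3 libraries, which follows from the matching, and held between 225.2 and 312.2 RPM in BT474. They lie on chromosomes 17, 5, 18, 10 and 11, and CDH12 is a further cadherin.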

How the data were processed

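H3K4me1 was mapped in 2 replicates of SKBR3 and 2 of BT474, and HER2 in 1 sample for each line and treatment. According to its methods section, the authors aligned reads to hg19 with bowtie2 2.2.6, removed reads of low mapping quality, called HER2 peaks with MACS2 2.0.10.20131216 and H3K4me1 islands with SICER 1.1, and removed blacklisted regions and regions of high input. The submitters' processing notes name BWA 0.5.9 and MACS 1.4.1 instead. The deposited count of each island is whole reads, unscaled. The deposited score of each HER2 peak has no stated scale and was compared within a list. Input samples were not analysed here.

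Island reads were apportioned to the gene windows by length (GENCODE release 44 on GRCh37) and tested with edgeR 4.0.16 (quasi-likelihood, TMM, filterByExpr, totals of island reads as library sizes) in R 4.3.3. Adjusted p-values follow Benjamini and Hochberg over all 18837 windows, with a threshold of 0.05. DESeq2 1.42.0 was an alternative. Cover, segments, start sites and HER2 peaks were tallied without a test. The named genes were the 10 members, the largest change in each direction of each list, the windows most like CDH1 beyond 1 Mb from it, and genes with a start in a called segment. Further genes of the lists were named after their values were seen. The members, lists and 46 alternatives were chosen with earlier results of these data known, and 2 alternatives were added after the data were seen. The count test and interval tallies were tested on simulated data. Precision is limited by 2 replicates per line and by the lists, which leave out signal that was not called as an island. Some results withheld for evaluation are not reported here.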

Additional observations from a re-analysis of the deposited data

Results flagged for a closer look

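In the full lists the change in the number of HER2 peaks with EGF had opposite signs in the lines. Between vehicle and EGF the number of distinct peaks in the 10 windows changed by -1 in SKBR3 (from 2 to 1) and by 12 in BT474 (from 4 to 16). The difference was not tested, since each condition had 1 list, and the lists themselves numbered 2596 and 2520 peaks in SKBR3 and 8559 and 29326 in BT474. With the lists cut to equal length, BT474 had 1 peak with vehicle and 1 with EGF, and SKBR3 had 2 and 1. The opposite signs were then not kept.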

How the results depend on the processing

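Under 46 other settings and 2 chosen after the data were seen, 122 counts stayed within 1.5 times the reported count and 20 did not. Of the members' fold changes, 108 kept their direction and their side of the threshold. The rest were 8 reversed, 5 weaker, 3 stronger and 3 moved relative to 1 Mb on either side, CTNNB1 with its sign changed among the last. The 108 include CDH1, CDH3 and ZEB1, whose windows at 0 in SKBR3 left little room for change. The HER2 counts moved most. In SKBR3 with vehicle they were 4 with 100 kb flanks and 0 at a score of at least the median, with 0 in an island. In SKBR3 with EGF they were 0 in the gene body, 0 with 10 kb flanks, 2 with 100 kb flanks and 0 at that score. In BT474 with vehicle they were 2 in the gene body, 2 with 10 kb flanks, 2 at that score and 1 with lists cut to equal length. In BT474 with EGF they were 10 in the gene body, 26 with 100 kb flanks, 5 at that score (3 in an island) and 1 at equal length. Segments of at least 25 kb gave 1 gene in BT474, and counting the start site itself gave 4 genes in BT474. At the canonical start 2 genes had an island in SKBR3. In gene bodies alone 4056 windows were higher in SKBR3.

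Signs reversed for CTNNB1 without TMM (-0.04), in the gene body (-0.19) and with 10 kb flanks (-0.15), for EPCAM in the gene body (-0.70) and with 10 kb flanks (-0.08), and, relative to 1 Mb on either side, for JUP (-0.19), EPCAM (-0.54), CTNNB1 (-0.65) and VIM (0.29). The cause was not tested. CTNND1 was called without TMM, in the gene body and with 10 kb flanks (-0.28, adjusted p = 0.0119). When a library was left out, the lone sample was assumed to vary like the other line.

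The replicate numbers did not pair the samples (correlation of deviations -0.0392 over 18837 windows). With a replicate block 5698 windows were higher in SKBR3 and 6214 in BT474, with 3 and 4 of the members, VIM being lost (-0.82, adjusted p = 0.0629).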
